A study of Juglans regia with 12 samples.

Results

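The 3 microRNA families miR160, miR390 and miR393, which act on the auxin pathway, were described in flower buds of Persian walnut (Juglans regia). Their members were the rows of the deposited miRNA table whose matched miRNA name carries exactly one of these family numbers, which gave 38 of the 931 listed sequences: 18 of miR160, 11 of miR390 and 9 of miR393. Buds came from field-grown trees of 2 types. The first is a precocious walnut, titled EF and labelled with an early flower stage, called early-flowering here. The second is labelled as late fruiting, titled LF and given a late flower stage, called late-flowering here. Each type had 3 small RNA libraries, and no treatment, tree age or clone is given in the labels. Walnut type and labelled bud stage change together between the groups and cannot be told apart. Whether the replicates are separate trees is not labelled, and p-values then cover the spread among these libraries alone, which may be technical. Buds are bulk tissue, in which fewer cells of a type and less RNA per cell cannot be told apart. The flower bud label could not be checked against marker genes, since the gene table pairs its IDs with no gene names and was not used here.

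Auxin is the hormone that sets where buds, floral organs and lateral roots arise. In Arabidopsis, the 3 families act on the auxin response at different steps. miR393 guides cleavage of transcripts of TIR1 and the AFB proteins, the receptors of auxin. miR160 targets ARF10, ARF16 and ARF17, response factors that mostly repress auxin-responsive genes. miR390 acts indirectly: bound to the Argonaute protein AGO7, it triggers the production of small interfering RNAs from TAS3 transcripts, and these silence ARF2, ARF3 and ARF4. Each miRNA is cut from a hairpin as a duplex, whose 5p and 3p strands come from the 2 arms of the hairpin. In all 3 families the 5p strand is the known guide, and the 3p strand is usually the passenger.

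The sequences below are those with at least 60 counts over the 6 libraries, and they show how closely the members of a family resemble each other. They were taken from the deposited table, which writes T for U. Bases 2 to 8, the seed, are in capitals. Sequences matched to a name without an arm are grouped with the 5p sequences, and those shown here share the 5p seed of their family. The 4 miR160 sequences on the 5p side were:
jre-MIR160-3: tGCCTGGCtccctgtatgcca
jre-MIR160-1: tGCCTGGCtccctgaatgcca
jre-MIR160-8: tGCCTGGCtccctgtatgccg
jre-MIR160-10: tGCCTGGCtccctgtatgct
The miR160 sequences matched to a 3p arm were:
jre-MIR160-6: gCGTATGAggagccatgcata
jre-MIR160-4: gCGTGCGAggagccaagcata
The miR390 sequences, first the 5p and then the 3p strand, were:
jre-MIR390-2: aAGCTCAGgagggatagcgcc
jre-MIR390-6: cGCTATCTatcctgagtttca
The miR393 sequences, 2 on the 5p side and then 1 matched to a 3p arm, were:
jre-MIR393-2: tCCAAAGGgatcgcattgatt
jre-MIR393-3: tCCAAAGGgatcgcattgatc
jre-MIR393-7: aTCATGCTatccctttggatt

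A 5p seed was shared by several sequences in each family. The seed GCCTGGC stood in 11 of the 18 miR160 sequences and in 84.3% of the family's counts. AGCTCAG stood in 4 of 11 miR390 sequences with 53.3% of counts, and CCAAAGG in 5 of 9 miR393 sequences with 74.0%. The 3 families share no seed with one another. Counted from the 5′ end, jre-MIR160-1 differs from jre-MIR160-3 by T15A, and jre-MIR160-8 differs from it by A21G. jre-MIR160-10 is 20 bases long and ends in T where jre-MIR160-3 has C. The pair jre-MIR393-2 and jre-MIR393-3 is separated by T21C alone. On the 3p side, jre-MIR160-4 differs from jre-MIR160-6 by A5G, T6C and T16A. It therefore has another seed. Sequences of 21 bases held 95.9% of the miR160 counts, 99.0% of the miR390 counts and 96.6% of the miR393 counts. A first base of T, which Arabidopsis AGO1 prefers, was found in 84.2% of miR160 and 74.0% of miR393 counts. A first base of A, the base that AGO7 prefers in its partner miR390, was found in 53.0% of miR390 counts.

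When strands were laid against each other with 2-base 3′ overhangs, jre-MIR390-2 and jre-MIR390-6 gave 16 Watson-Crick pairs and 2 G-U pairs over 19 positions, the closest match of the strands shown. Each of jre-MIR393-2 and jre-MIR393-3 gave 15 Watson-Crick and 1 G-U pair with jre-MIR393-7. jre-MIR160-3 gave 14 and 3 with both jre-MIR160-6 and jre-MIR160-4. These counts describe letters, and precursors were not used.

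The miRNA libraries held 309697 to 646408 counts of listed miRNAs, the lowest in early-flowering replicate 1. The 3 families together made up 0.402% to 0.585% of these counts. Levels are given as CPM, the count scaled to a common library total, with TMM, a method that equalises libraries on the bulk of their sequences. A floor of 3 counts equals 4.76 to 10.3 CPM, depending on the library, and covers counting error only. A positive log2 fold change means a higher level in early-flowering buds, and p-values are from edgeR's quasi-likelihood test adjusted by the Benjamini-Hochberg method over all features tested, with a threshold of 0.05.

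None of the 3 family sums passed the edgeR test (0 of 3, with 1 at an unadjusted p under 0.05 and 0 by DESeq2). Of the 37 families tested, 13.5% passed, 8.11% higher and 5.41% lower in early-flowering buds. An unadjusted p under 0.05 by edgeR was not particular to miR390. It was also found for miR156, miR159, miR167, miR172, miR319, miR394, miR827 and miR2950. miR390 had the largest difference of the 3, with a higher mean in early-flowering buds. The difference for miR160 was smaller than the SD of either group, and that for miR393 was larger than the early-flowering SD and close to the late-flowering one.

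The miR390 sum was 1999, 2641 and 2830 CPM in the early-flowering libraries and 2017, 1528 and 1527 CPM in the late-flowering ones. The groups met only at early-flowering replicate 1, which lay just under late-flowering replicate 1. The means were 2490 ± 436 CPM and 1691 ± 283 CPM (SD, n = 3 each; log2 0.56, SE 0.23, 95% interval 0.03 to 1.09, unadjusted p = 0.0415, edgeR adjusted p = 0.171). Without early-flowering replicate 1, the library with the fewest counts, the miR390 sum passed (log2 0.67, edgeR adjusted p = 0.0375). Calls were more frequent in that fit in general: 54 of 268 tested sequences passed, against 28 of 243 with all 6 libraries. The number of families that passed there was not recorded. In each of the other 5 fits that left out 1 library the miR390 sum did not pass, with log2 values down to 0.30 without early-flowering replicate 3.

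The miR160 sum was 1734, 1951 and 2713 CPM in the early-flowering libraries and 2470, 1698 and 1478 CPM in the late-flowering ones. The groups overlapped over most of their range, with 1 high library in each. The means were 2133 ± 514 CPM and 1882 ± 521 CPM (SD, n = 3 each; log2 0.18, SE 0.28, 95% interval −0.46 to 0.82, edgeR adjusted p = 0.668). The sign turned without early-flowering replicate 3 (log2 −0.19), so no direction is given for the family.

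The miR393 sum was 551, 531 and 457 CPM in the early-flowering libraries and 500, 640 and 630 CPM in the late-flowering ones. The groups overlapped through late-flowering replicate 1, the lowest library of its group. The means were 513 ± 49.2 CPM and 590 ± 77.7 CPM (SD, n = 3 each; log2 −0.20, SE 0.26, 95% interval −0.79 to 0.38, edgeR adjusted p = 0.594). The interval includes a higher as well as a lower level, so a difference was not detectable with these libraries.

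**Figure D1:**
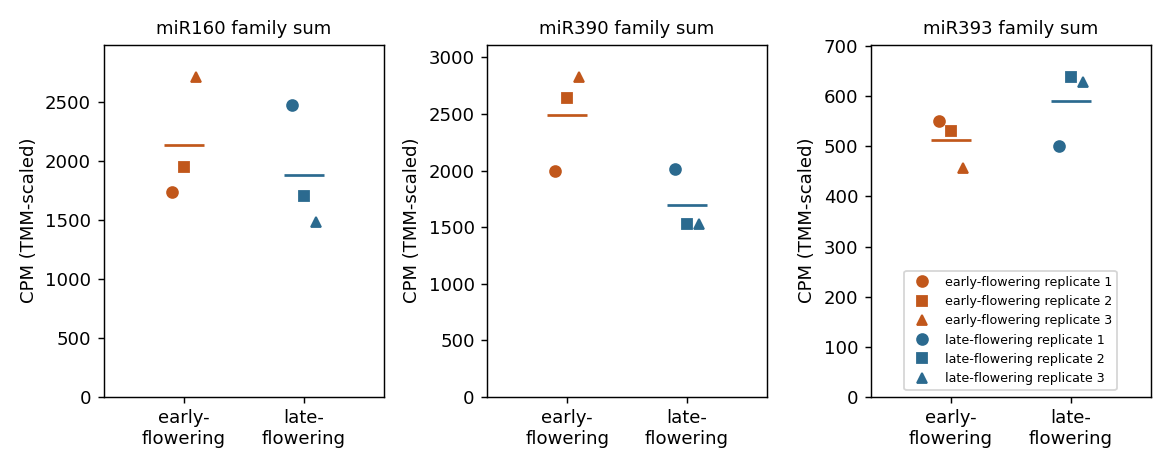
Summed CPM (TMM-scaled, y axis from 0) of the miR160, miR390 and miR393 families in early-flowering (orange) and late-flowering (blue) buds, with 1 point per library and a line at the mean of 3. The miR390 means are 2490 and 1691 CPM, and points of both types overlap in each panel.

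By level, miR393 was the lowest of the 3 families in each of the 6 libraries. miR390 and miR160 lay close together. In late-flowering buds their means of 1691 and 1882 CPM were closer than either SD. Among the 37 tested families, ordered by mean CPM, miR390 was 19, miR160 was 20 and miR393 was 25.

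The balance between families inside a library needs no scaling. The log2 ratio of miR390 to miR160 counts was 0.21, 0.44 and 0.06 in the early-flowering libraries, against −0.29, −0.15 and 0.05 in the late-flowering ones. The groups did not overlap, although the nearest libraries were 0.06 and 0.05. The mean ratio was higher by 0.37 in early-flowering buds, at 0.23 ± 0.19 against −0.13 ± 0.17 (SD, n = 3 each). By exact permutation, two-sided, p was 0.1, below which 3 against 3 libraries cannot go, and 0.3 after adjustment over the 3 ratios. The ratio of miR390 to miR393 averaged 2.27 ± 0.39 against 1.52 ± 0.43, with overlapping groups (exact permutation p = 0.2, adjusted 0.3). The ratio of miR393 to miR160 averaged −2.03 ± 0.48 against −1.65 ± 0.58 (exact permutation p = 0.5, adjusted 0.5).

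Of the 38 sequences, 12 passed the filter on low counts and were tested, 11 with at least 60 counts and 1 miR390 sequence below that. In early-flowering buds 0 of the 12 rose and 1 fell, by edgeR as by DESeq2, while of all 243 tested sequences 11.5% passed, 4.94% higher and 6.58% lower. One call in 12 is near that background. At an unadjusted p under 0.05, 4 of the 12 passed, against 34.2% of all. The median log2 fold change was 0.33 over the 12 and 0.13 over all 243, with 8 positive and 4 negative values among the 12. The groups did not overlap in CPM for 4 sequences that were higher and 2 that were lower, against 19.8% and 17.7% of all tested sequences, or 37.4% in both directions.

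The sequence that fell was jre-MIR160-4, a low-level miR160 sequence matched to a 3p arm. It measured 27.5, 32.7 and 15.9 CPM in early-flowering buds, from 8, 20 and 10 counts. In late-flowering buds it measured 65.0, 62.2 and 72.9 CPM, from 37, 29 and 39 counts. Each early-flowering library lay below each late-flowering one. The means were 25.4 ± 8.60 CPM and 66.7 ± 5.52 CPM (SD, n = 3 each; log2 −1.40, SE 0.36, 95% interval −2.23 to −0.57, edgeR adjusted p = 0.0393). The fold change kept its sign in 12 of 12 alternatives, with log2 values of −1.73 to −1.29 when single libraries were left out. The call did not hold as widely. It was lost without early-flowering replicate 2 (edgeR adjusted p = 0.0798) or 3 (0.0584). It was also lost without late-flowering replicate 1 (edgeR adjusted p = 0.0778), 2 (0.0979) or 3 (0.151), with no filter (0.0809) and with the replicate block (0.0852).

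The other miR160 sequence from a 3p arm, jre-MIR160-6, was more abundant and varied widely within each type. It measured 172, 273 and 476 CPM in early-flowering and 339, 133 and 140 CPM in late-flowering buds. The groups overlapped (log2 0.59, SE 0.49, 95% interval −0.52 to 1.71, edgeR adjusted p = 0.376). The log2 value was 0.00031 when early-flowering replicate 3 was left out and 1.17 when late-flowering replicate 1 was.

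On the 5p side, jre-MIR160-3 was the most abundant miR160 sequence. It measured 864, 960 and 1281 CPM in early-flowering and 1055, 775 and 704 CPM in late-flowering buds, with overlapping groups (log2 0.29, SE 0.27, 95% interval −0.32 to 0.90, edgeR adjusted p = 0.421). jre-MIR160-1, the form with T15A, measured 389, 447 and 718 CPM against 850, 590 and 424 CPM (log2 −0.26, SE 0.35, 95% interval −1.07 to 0.55, edgeR adjusted p = 0.591). The fold changes of these main guide forms thus had opposite signs, and each turned its sign when 1 library was left out, jre-MIR160-3 without early-flowering replicate 3 (log2 −0.05) and jre-MIR160-1 without late-flowering replicate 1 (log2 0.03).

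The variants with another 3′ end had higher values in each early-flowering library than in any late-flowering one, but did not pass. jre-MIR160-8 measured 165, 118 and 106 CPM against 96.6, 51.5 and 61.7 CPM (log2 0.87, SE 0.34, unadjusted p = 0.0311, edgeR adjusted p = 0.110). jre-MIR160-10 measured 86.0, 89.8 and 79.4 CPM against 36.9, 57.9 and 54.2 CPM (log2 0.78, SE 0.29, unadjusted p = 0.0286, edgeR adjusted p = 0.107). Both share the seed of the main miR160 guide and each held under 10% of the family in each library.

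In the miR390 family, the guide strand jre-MIR390-2 had a larger fold change than its partner. The share of jre-MIR390-2 in family counts overlapped between the types, however (exact permutation p = 0.2, adjusted 0.3). The guide strand measured 1098, 1546 and 1467 CPM in early-flowering and 887, 710 and 813 CPM in late-flowering buds. The groups did not overlap in CPM. The means were 1370 ± 239 CPM and 803 ± 88.5 CPM (SD, n = 3 each; log2 0.77, SE 0.24, 95% interval 0.23 to 1.31, unadjusted p = 0.0107, edgeR adjusted p = 0.0684). It missed the threshold. Without early-flowering replicate 1 it passed (log2 0.87, edgeR adjusted p = 0.0246), the single one of 12 alternatives in which it did. In that fit 54 sequences passed in all, against 28 with all 6 libraries.

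The opposite strand, jre-MIR390-6, measured 819, 1011 and 1308 CPM against 1067, 777 and 669 CPM. The groups overlapped (log2 0.32, SE 0.28, 95% interval −0.32 to 0.97, edgeR adjusted p = 0.413), and the sign turned without early-flowering replicate 3 (log2 −0.03). The 3p strand of miR390 was thus nearly as abundant as the guide, and in late-flowering replicates 1 and 2 its counts exceeded those of the guide, at 1.20 and 1.09 times. The third tested sequence, jre-MIR390-10, differs from the guide by G19A and had 2 to 19 counts per library (log2 1.13, SE 0.65, edgeR adjusted p = 0.234).

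In the miR393 family both guide forms had lower means in early-flowering buds and the 3p strand a higher one, and none of the 3 passed. jre-MIR393-2 measured 251, 219 and 151 CPM against 195, 352 and 291 CPM, with overlapping groups (log2 −0.44, SE 0.32, 95% interval −1.18 to 0.30, edgeR adjusted p = 0.331). jre-MIR393-3 measured 107, 139 and 138 CPM against 162, 159 and 168 CPM. The groups did not overlap (log2 −0.34, SE 0.25, 95% interval −0.91 to 0.23, edgeR adjusted p = 0.327). jre-MIR393-7, the 3p strand, measured 169, 162 and 143 CPM against 123, 107 and 142 CPM. Its groups did not overlap either, by a margin of about 1 CPM (log2 0.34, SE 0.25, 95% interval −0.24 to 0.92, edgeR adjusted p = 0.333). In Arabidopsis a 3p strand of miR393 is known to bind AGO2 and to act on MEMB12, a membrane traffic protein, in the response to bacteria. Whether jre-MIR393-7 matches that strand in sequence or target was not examined.

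**Figure D2:**
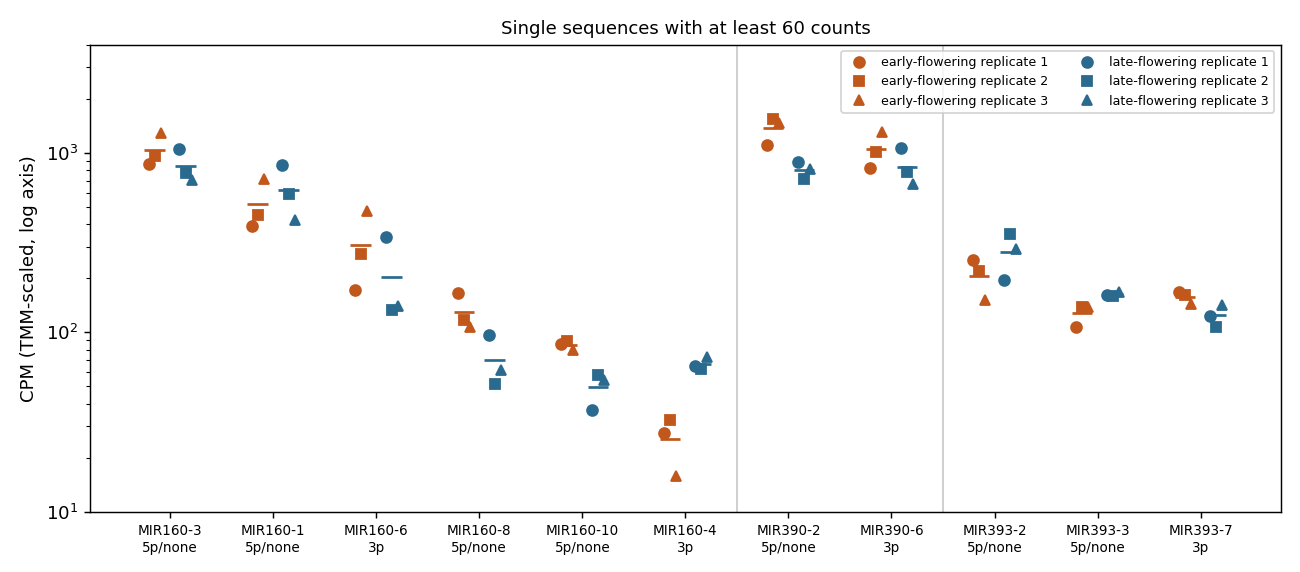
CPM (TMM-scaled, log y axis) of the 11 sequences with at least 60 counts, 1 point per library and a line at the mean of 3, early-flowering in orange and late-flowering in blue. jre-MIR160-4 lies at 15.9 to 32.7 CPM in early-flowering and at 62.2 to 72.9 CPM in late-flowering buds.

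**Figure D3:**
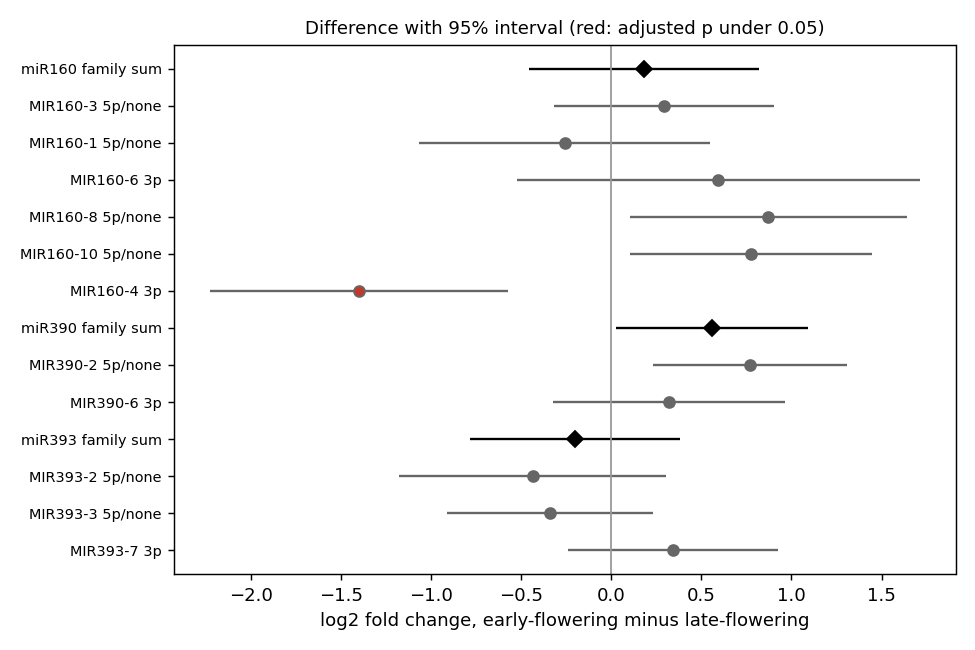
Log2 fold change (x axis, early-flowering minus late-flowering) with its 95% interval for the 3 family sums (diamonds) and the 11 sequences (circles). Red marks an edgeR adjusted p under 0.05, which jre-MIR160-4 reached, at −1.40.

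The division of each family between its strands was compared inside libraries, as a percent of family counts. The 3p sequences held 30.6%, 30.5% and 31.6% of miR393 counts in the early-flowering libraries, against 24.6%, 16.8% and 22.6% in the late-flowering ones. Each early-flowering library lay above each late-flowering one. The means were 30.9% ± 0.614 and 21.3% ± 4.04 (SD, n = 3 each), with an exact two-sided permutation p of 0.1, the smallest possible here, and 0.3 after adjustment over the 6 shares tested. Wilson 95% intervals on these shares reached 4.24 to 7.07 percentage points to either side, for counting error only.

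For miR390 the 3p share had the opposite direction, at 43.0%, 40.0% and 47.2% in early-flowering and 54.7%, 52.2% and 45.7% in late-flowering buds. The groups overlapped through the last library of each (43.4% ± 3.63 against 50.9% ± 4.66, exact permutation p = 0.2, adjusted 0.3). For miR160 the 3p share was 15.2% ± 3.47 against 14.2% ± 2.41 (n = 3 each, exact permutation p = 0.8, adjusted 0.8), and its sign turned when early-flowering replicate 3 (−0.534 points) or late-flowering replicate 2 (−0.246 points) was left out.

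The share of a family in its most abundant sequence was also compared. jre-MIR160-3 held 42.7% to 49.8% of miR160 over the 6 libraries (exact permutation p = 0.2). jre-MIR390-2 held 44.0% to 58.5% of miR390 (exact permutation p = 0.2) and jre-MIR393-2 held 33.0% to 55.0% of miR393 (exact permutation p = 0.4). Groups overlapped for each of them, and the adjusted values were 0.3, 0.3 and 0.48.

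**Figure D4:**
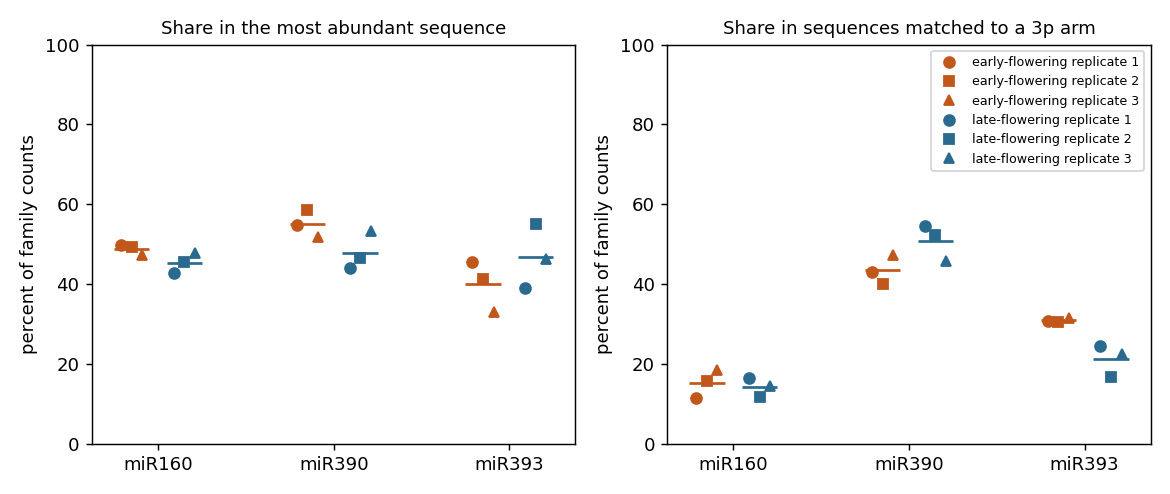
Percent of family counts (y axis, 0 to 100) in the most abundant sequence (left) and in sequences matched to a 3p arm (right), 1 point per library and a line at the mean of 3. The 3p share of miR393 averages 30.9% in early-flowering and 21.3% in late-flowering buds, and groups overlap for the other shares.

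The remaining 27 sequences had 1 to 53 counts in total, and 19 of them had at most 10. Together they held 2.36% of the counts of the 3 families. Of these, 11 differ from the most abundant sequence of their family and arm by 1 substitution. Apart from jre-MIR390-10, they were not tested.

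Of the other miRNAs known to touch auxin signalling, miR167, which targets ARF6 and ARF8, and miR164, which targets NAC1 in Arabidopsis, were present, and 0 sequences of miR847 were listed. In these, 0 of 24 tested sequences passed the edgeR test in either direction, with 6 at an unadjusted p under 0.05 and 1 by DESeq2, a miR167 sequence that was lower. Over all 243 sequences the edgeR share was 11.5%, and 34.2% were at an unadjusted p under 0.05. The median log2 fold change was −0.29 over 18 miR167 sequences, of which 14 were negative, and 0.67 over 6 miR164 sequences, all positive. Over all 243 it was 0.13, with 138 positive and 105 negative values. The miR164 sum was at 1764 ± 94.8 CPM against 1516 ± 225 CPM, with overlapping groups (log2 0.22, SE 0.23, edgeR adjusted p = 0.575, n = 3 each). The miR167 sum was at 62525 ± 11168 CPM in early-flowering and 95778 ± 18105 CPM in late-flowering buds, and the groups did not overlap (n = 3 each; log2 −0.62, SE 0.21, edgeR unadjusted p = 0.0158, adjusted p = 0.0834). Its level was far above those of miR160, miR390 and miR393.

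Likeness to other families was measured as the root mean square difference of mean-centred log2 CPM over the 6 libraries, as a description. The miR390 profile was nearest to those of miR159 (0.0854) and miR164 (0.201), with a median of 0.628 over the 36 other families. miR160 was nearest to miR164 (0.197) and miR159 (0.227), with a median of 0.545. miR393 was nearest to miR396 (0.112) and miR166 (0.169), with a median of 0.500. The libraries are shared by all families, and flat profiles lie near each other by this measure. The distance from a wholly flat profile was 0.344 for miR390, 0.308 for miR160 and 0.172 for miR393. miR166 was thus hardly nearer to miR393 than a flat profile was.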

How the data were processed

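Small RNA counts of 6 flower bud libraries were used, 3 per walnut type, grouped by sample title. The authors deposited raw counts per mature sequence, which were whole numbers. FastQC, HISAT2, Cufflinks and DESeq2 are listed without a role, per the submitters' processing notes. How small RNA reads were mapped and named was not stated. The protocol in the labels describes an mRNA kit only. Column totals cover listed miRNAs, not whole libraries.

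Counts were tested with edgeR 4.0.16 (R 4.3.3): TMM scaling, filterByExpr with a minimum count of 10, robust quasi-likelihood fits with walnut type as the term, over all 931 sequences (243 tested). Counts were summed per family number of the matched name (miR157 under miR156) and fitted with the sequence-level scaling. Standard errors come from the F statistic. Ratios and shares were compared by exact two-sided permutation (SciPy 1.17.1). The sequence fit was also run on counts simulated with the means and spread estimated from these libraries. Such a run checks the code, and cannot check whether the model suits these libraries. Replicate libraries differed beyond counting noise (chi-square per degree of freedom 38.5 to 171). Named sequences were those with at least 60 counts. Members, lists and tests were chosen with earlier results of these data known. Alternatives were DESeq2 1.42.0, its size factors, total counts, no filter, a replicate block, each library left out, TMM of family sums and, chosen after seeing the data, merging near-identical sequences.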

Additional observations from a re-analysis of the deposited data

How the results depend on the processing

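With all libraries, the sign of each family sum and of each named sequence was the same under DESeq2, its size factors, total counts, no filter, the replicate block and, where run, TMM of family sums and merging. The number of calls was less stable. Among miR160, miR390 and miR393 sequences it was 0 with no filter and 0 with the replicate block, and 0 to 2 over the left-out libraries, against 1 in the report. Over all sequences it was 17 with the replicate block (7 higher, 10 lower) and 2 to 54 over the left-out libraries, against 28; the cause was not tested. Left-out libraries gave log2 values of −0.19 to 0.42 for the miR160 sum, 0.30 to 0.70 for miR390 and −0.31 to −0.19 for miR393. They gave −0.73 to 0.03152 for jre-MIR160-1, −0.05318 to 0.48 for jre-MIR160-3 and −0.03156 to 0.53 for jre-MIR390-6. The difference in the 3p share of miR160 ran from −0.534 to 2.90 points, and those of the other shares and of the ratios kept their sign. Deviations of same-numbered libraries were not shared (correlations across sequences of −0.091, −0.087 and −0.30), so the numbers give no pairing. With 3 libraries per type and 160 to 1783 counts per family and library, small differences may be missed.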

Other observations

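Ratios between sequences of the miR160 family inside a library were looked at after their values were seen, so they are given without a test. The ratio of jre-MIR160-1 to jre-MIR160-3, the guide forms that differ by T15A, was 0.450, 0.466 and 0.560 in the early-flowering libraries, against 0.805, 0.762 and 0.602 in the late-flowering ones, so the groups did not overlap. The ratio of jre-MIR160-4 to jre-MIR160-6, both matched to a 3p arm, was 0.160, 0.120 and 0.0333 in the early-flowering libraries. The late-flowering ones had 0.192, 0.468 and 0.520, again with no overlap. The nearest libraries, at 0.160 and 0.192, rest on few counts, 8 against 50 and 37 against 193. The ratio of jre-MIR160-8 to jre-MIR160-3, which differ by A21G at the last base, overlapped between the types, at 0.0830 to 0.191 and 0.0665 to 0.0915. That of jre-MIR160-10 to jre-MIR160-3 overlapped too, at 0.0620 to 0.0996 and 0.0349 to 0.0769. How often such ratios fail to overlap among all sequences was not examined.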
